A study of Mus musculus with 16 samples.

Results

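Wild type germinal centre B cells were sequenced in both cohorts of a study of the acetyltransferase gene Crebbp in mice, and these wild type libraries differ in cohort but in no labelled Crebbp allele. The 6 libraries described here, of 16 in all, are those whose column names end in CBP_WT without RH (3 libraries, named KO cohort WT 1 to 3) and those whose names end in CBP_RH_WT (3 libraries, named RH cohort WT 1 to 3). Both groups carry wild type Crebbp, were immunised with sheep red blood cells injected into the peritoneum, and were sorted from spleen as B220+, PNA+ and CD95+ cells. The other 10 libraries carried Crebbp knock-out (KO, 3 libraries) or the RH knock-in on one copy (RH HET, 4 libraries) or on both copies (RH HOMO, 3 libraries). The alleles are germinal centre specific and conditional by the series title. The sources used here give neither the Cre driver, the strain, the age of the mice nor whether each library is a separate mouse, so p-values measure only the spread between these libraries. For both cohorts the time between immunisation and sorting is 12 days in the protocol text but 10 days in a tag of the samples.

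One label conflict touches every result. RH cohort WT 1 is named as an RH cohort wild type in its title, while its batch tag names the knock-out cohort. It was placed by its title, and the count of called genes is given below with and without it, over all genes and for the lists with called members described below. Among the 6 wild type libraries it also stood farthest from the others: on the first principal component of log2 CPM (library-size normalised counts, with sizes scaled by the TMM method) over the tested genes of all 16 libraries, which held 20.6% of the variance, it lay at 50.7, against 14.9 and -5.78 for RH cohort WT 2 and 3 and -34.1, -32.8 and -30.5 for KO cohort WT 1 to 3. Among the mutant libraries, RH HOMO 2 lay beyond it at 77.1.

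A germinal centre is the structure in which activated B cells divide, mutate their immunoglobulin genes and are selected by T cell help. Cells cycle in its dark zone and are selected in its light zone, where MYC is induced for a short time in the cells that will divide again, and ribosome production, glycolysis and mitochondrial respiration follow that growth programme. These programmes, the sorting markers and the lists of other cell types were therefore compared between the wild type groups.

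The libraries held between 41407419 and 93040297 counts (RH cohort WT 1 and KO cohort WT 2). Of 48593 genes, 16606 had enough counts to be tested. The germinal centre label held in all 6 libraries: Bcl6, the transcriptional repressor that defines these cells, was at 453 to 520 CPM, and Fas, which encodes CD95, at 86.7 to 111 CPM. Neither passed the test between the groups (edgeR adjusted p = 0.662 for Bcl6 and 0.353 for Fas). The sexes were mixed in both groups. Xist was at 3071 and 2424 CPM in KO cohort WT 1 and 3 and at 1877 CPM in RH cohort WT 3, and at no more than 2.59 CPM in the others, so KO cohort WT held 2 female libraries and 1 male and RH cohort WT 1 female and 2 male. Mitochondrial genes took 3.90%, 4.47% and 4.03% of the counts in KO cohort WT and 7.34%, 7.15% and 4.72% in RH cohort WT, without overlap. In bulk libraries, fewer cells of a type and less RNA per cell cannot be told apart.

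Between the wild type groups, 527 genes (3.17% of those tested) were higher in RH cohort WT and 313 (1.88%) were lower, 840 in all (5.06%), by edgeR's quasi-likelihood test at an adjusted p under 0.05. A gene past that threshold is called changed below. The differences were mostly small: the median absolute log2 difference of the called genes was 0.59, 275 of them were under 0.5, and 135 reached 1, a doubling or halving of the level. The median over all tested genes was 0.01. The 3 libraries of one group lay above or below the 3 of the other without overlap for 5679 genes (34.2%), of which those higher in RH cohort WT made up 17.4% of the tested genes and those lower 16.8%. With 3 libraries against 3, the smallest exact permutation p for a single gene is 0.1. Next to these, the same test called 216 genes (1.3%) between KO and its own wild type, 3 genes (0.0181%) between RH HET and RH cohort WT, and 261 genes (1.57%) between RH HOMO and RH cohort WT.

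The number of calls moved with single libraries. Without RH cohort WT 1, 57 genes were higher and 13 lower. Without RH cohort WT 2 the counts were 11 and 3, and without RH cohort WT 3, the library nearest to KO cohort WT, they were 1119 and 749. Leaving out KO cohort WT 1, 2 or 3 gave 9 and 4, 1 and 2, or 183 and 77. No called gene turned its direction in any of these 6 fits. With RH cohort WT 1 counted as the knock-out cohort's, as its batch tag has it, 1 gene was higher and none lower, with 1146 genes at an unadjusted p under 0.05. With a term for each library's mitochondrial share, which differs between the groups without overlap, edgeR called no gene, with 1546 genes at an unadjusted p under 0.05. A term for sex gave 412 higher and 272 lower calls.

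Apart from mt-Nd4l, described with the mitochondrial genes, the largest rises among genes that averaged 2 or more in log2 CPM ranged from 1.05 to 1.56 on the log2 scale. Scand1, which encodes a short SCAN domain protein, was at 10.2, 12.6 and 12.5 CPM in KO cohort WT and 35.5, 29.7 and 24.9 CPM in RH cohort WT, a log2 difference of 1.35 ± 0.22 (SE; edgeR adjusted p = 0.00871). All 3 RH cohort libraries stood well above the others. Tbx21, which encodes T-bet, a factor of interferon-driven B cells as well as of T and NK cells, was at 9.59, 7.80 and 9.06 CPM against 21, 31 and 13.9 CPM (1.32 ± 0.27, edgeR adjusted p = 0.0184). Its highest library was RH cohort WT 2 and the lowest of that group still exceeded every KO cohort library. Zfpm1, which encodes the GATA cofactor FOG1, was at 29.7, 27.6 and 31.9 CPM against 72.1, 63.9 and 48.4 CPM (1.05 ± 0.15, edgeR adjusted p = 0.00544). The other rises were Plac8 (1.56), Ccdc85b (1.24), Socs3 (1.21), Pml (1.13), mt-Te (1.11) and Timm10 (1.10) on the log2 scale. Of the 10 rises, only Scand1 (1.22) and Zfpm1 (0.92) were called without RH cohort WT 1, and only Scand1 (0.92), Timm10 (0.93), mt-Te (1.55) and mt-Nd4l with the length and GC offsets described below.

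Colca2 fell most. It lies near Pou2af1, a B cell coactivator gene, on chromosome 9 (51270258 to 51278569, mm10), and was at 20.7, 18.6 and 14.8 CPM in KO cohort WT and 2.41, 5.39 and 7.92 CPM in RH cohort WT (log2 difference -1.77 ± 0.42, edgeR adjusted p = 0.0292). Pou2af1 itself did not pass the test (0.01, edgeR adjusted p = 0.951). Mir17hg, the host transcript of the miR-17 cluster of microRNAs that act in lymphocyte growth, was at 28.0, 26.7 and 15.9 CPM against 9.62, 10.4 and 13.6 CPM (-1.07 ± 0.23, edgeR adjusted p = 0.0195). KO cohort WT 3 was the lowest of its group for both genes, and still did not overlap with RH cohort WT. The other falls, between -1.06 and -0.83, were Snord2, Nbeal1, Gpr137c, Zkscan16, Zfp950, Ubn2, Map3k2 and Fbxo48. None of the 10 falls was called without RH cohort WT 1, and only Mir17hg (-0.97), Zfp950 (-0.48) and Ubn2 (-0.35) were called with the offsets.

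**Figure D1:**
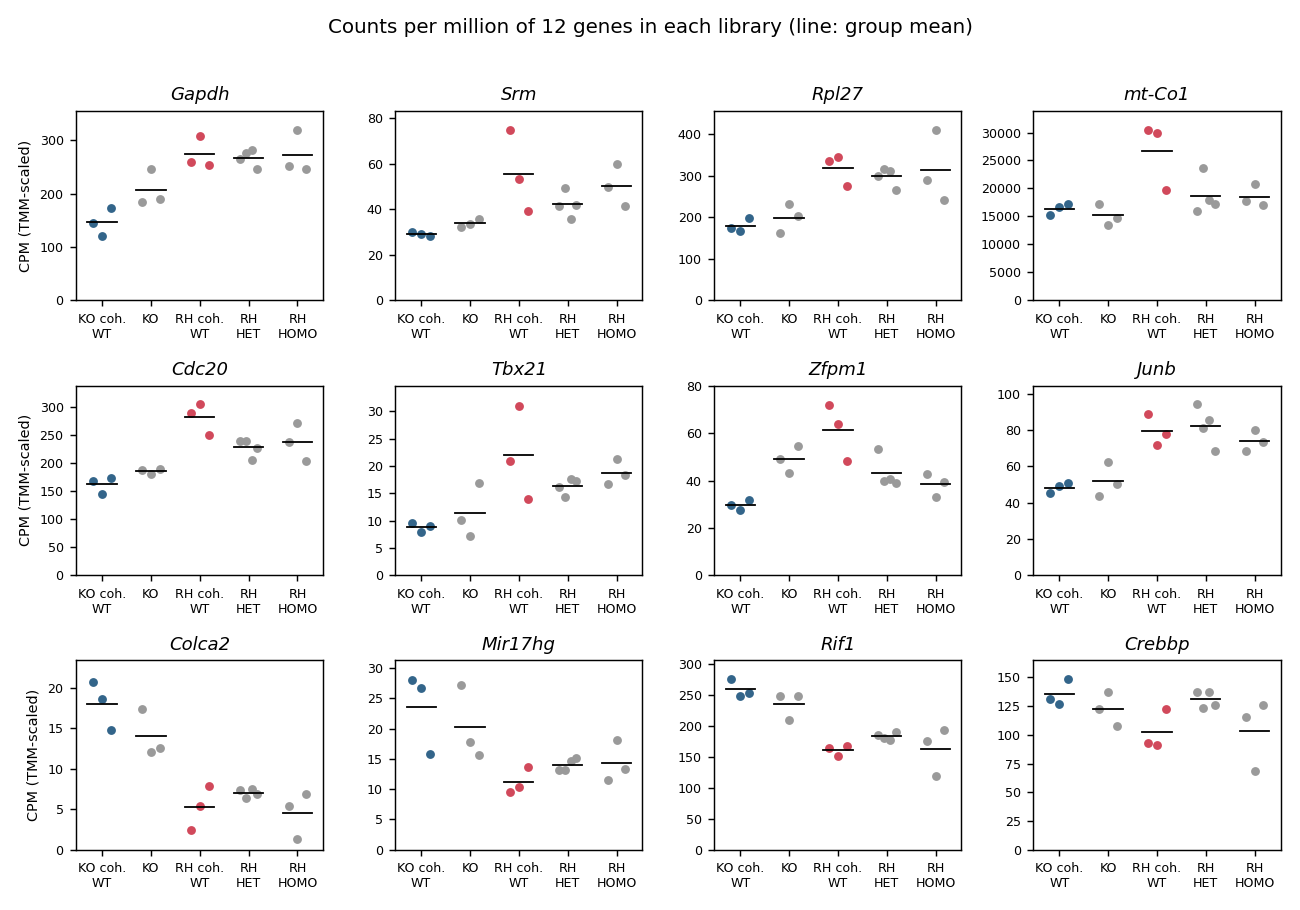
Level in CPM (vertical axis, linear, from 0) of 12 genes in each of the 16 libraries by group, with a line at each group mean; KO cohort WT is blue, RH cohort WT is red and the mutant groups are grey. Gapdh, Srm, Rpl27, mt-Co1, Cdc20, Tbx21, Zfpm1 and Junb were higher and Colca2, Mir17hg and Rif1 lower in RH cohort WT without overlap, while the difference of Crebbp did not pass the test.

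Crebbp, the gene that the study alters elsewhere, was at 131, 127 and 149 CPM in KO cohort WT and at 93.2, 91.3 and 122 CPM in RH cohort WT. The libraries did not overlap, but the log2 difference of -0.41 ± 0.17 did not pass the test (edgeR adjusted p = 0.147). Its paralogue Ep300, the other acetyltransferase of the pair, was at 350, 332 and 418 CPM against 235, 206 and 311 CPM (-0.55 ± 0.23, edgeR adjusted p = 0.152). Of the 52 tested genes within 5 Mb of Crebbp on chromosome 16, 4 were called. Over the autosomes, between 2.87% and 7.85% of the tested genes of a chromosome were called.

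The called genes differed in sequence composition. The called higher genes had a median GC content of 56.0% over their longest annotated transcript and the called lower genes 43.2%, against 49.3% for all tested genes. Median exon length was 2569 bases for the called higher genes, 6569 for the called lower genes and 3429 for all. The start of the coding sequence shows the contrast. Below are the first 120 coding bases, 5′ to 3′, of the highest-GC pair of coding genes among the largest rises and the lowest-GC pair among the largest falls, from GENCODE M21 transcripts (build mm10), with G and C in capitals.
Scand1, chromosome 2, 156311847 to 156312704, minus strand: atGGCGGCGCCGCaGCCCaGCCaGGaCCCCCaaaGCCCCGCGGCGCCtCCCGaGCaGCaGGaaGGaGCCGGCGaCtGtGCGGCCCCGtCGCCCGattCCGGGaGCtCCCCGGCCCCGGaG
Zfpm1, chromosome 8, 122282141 to 122337251, plus strand: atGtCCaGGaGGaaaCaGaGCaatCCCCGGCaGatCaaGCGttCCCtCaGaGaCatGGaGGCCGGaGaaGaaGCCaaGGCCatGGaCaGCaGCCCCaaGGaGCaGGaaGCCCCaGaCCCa
Zfp950, chromosome 19, 61053840 to 61140840, minus strand: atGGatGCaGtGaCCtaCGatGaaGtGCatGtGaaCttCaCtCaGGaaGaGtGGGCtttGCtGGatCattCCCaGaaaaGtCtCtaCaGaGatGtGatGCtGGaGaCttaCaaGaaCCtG
Nbeal1, chromosome 1, 60180599 to 60338328, plus strand: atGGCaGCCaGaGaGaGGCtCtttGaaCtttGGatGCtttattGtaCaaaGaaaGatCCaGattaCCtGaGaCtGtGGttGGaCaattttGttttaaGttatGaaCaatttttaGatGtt

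In these stretches G and C made up 94 of 120 bases in Scand1 and 72 in Zfpm1, which rose, and 56 in Zfp950 and 43 in Nbeal1, which fell. Over the whole coding sequence the shares were 75.6%, 65.1%, 37.0% and 40.5%. The genes were chosen for this contrast, so the sequences illustrate the trend and do not test it.

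The trend ran through all protein-coding genes. From the lowest to the highest of 10 equal groups by GC content, the median log2 difference went from -0.18 to 0.30, the share called higher from 0.241% to 13.3%, and the share called lower from 6.66% to 0%. From the shortest to the longest of 10 equal groups by exon length, the median went from 0.30 to -0.23, the share called higher from 7.3% to 0.481%, and the share called lower from 0.16% to 6.82%. Classes with no coding sequence and at least 50 tested genes had negative medians. Genes annotated as TEC, a class of unconfirmed models often within introns, had a median of -0.52 (2 higher and 29 lower of 736). The lincRNAs had a median of -0.20 (4 higher and 24 lower of 675). Smaller classes were not summarised, such as the mitochondrial tRNA genes, of which mt-Te was higher (1.11). TEC and sense intronic genes together took 0.204%, 0.209% and 0.18% of the counts in KO cohort WT and 0.129%, 0.154% and 0.166% in RH cohort WT. A fit with an offset for exon length and GC content in each library, added after these trends were seen, called 136 genes higher and 74 lower, among them 93 and 63 of the 527 and 313, and turned the sign of 10 of these genes. With these offsets and without RH cohort WT 1, 21 were higher and 3 lower. The part of RNA quality or library preparation in the difference between the cohorts was not tested.

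**Figure D2:**
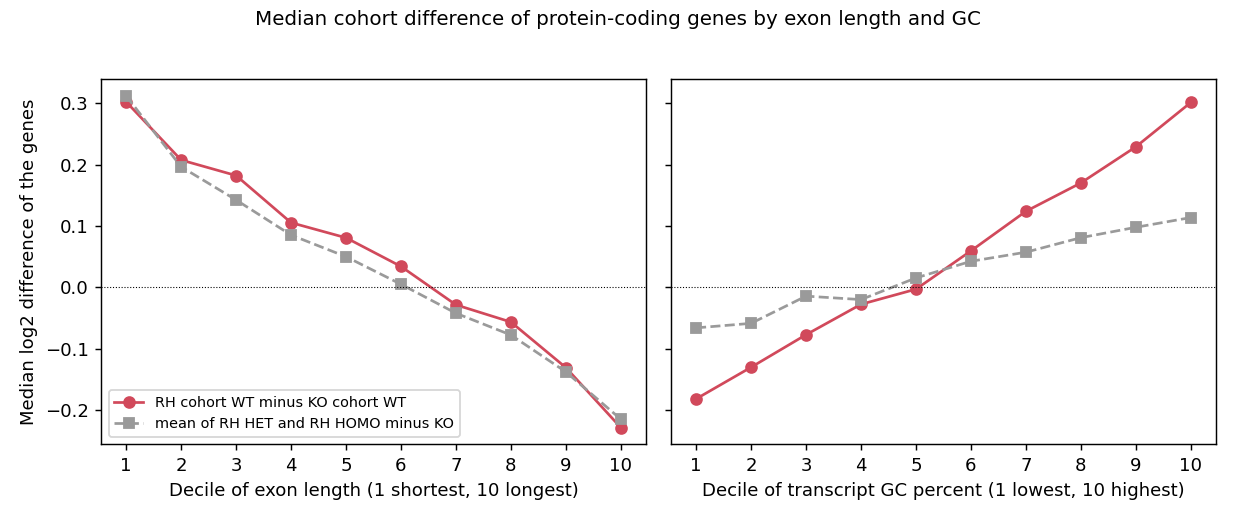
Median log2 difference (vertical axis) of protein-coding genes in 10 equal groups by exon length (left) and of transcript GC content (right), for RH cohort WT minus KO cohort WT (red) and for the mean of RH HET and RH HOMO minus KO (grey). The wild type medians ran from 0.30 to -0.23 with length and from -0.18 to 0.30 with GC content, and the mutant medians from 0.31 to -0.21 and from -0.07 to 0.11.

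Most genes of growth and energy metabolism had positive differences, with higher levels in RH cohort WT, and a minority of them were called. Calls in these and the following lists stand beside 3.17% of all tested genes called higher and 1.88% called lower. Glycolysis turns glucose into pyruvate and lactate. Of 20 tested glycolysis genes, 18 had a positive difference, the median was 0.35 against 0.01 over all genes, and 6 were called higher and none lower: Gapdh, Pgam1, Eno1, Tpi1, Ldha and Pkm. Gapdh, the triose phosphate dehydrogenase, was at 145, 120 and 174 CPM in KO cohort WT and 259, 309 and 254 CPM in RH cohort WT (0.91 ± 0.14, edgeR adjusted p = 0.00871). Pgam1, the phosphoglycerate mutase, was at 62.8, 64.4 and 66.3 CPM against 110, 115 and 92.8 CPM (0.71 ± 0.12, edgeR adjusted p = 0.00871). Neither gene overlapped between the groups. The list's median was 0.29 without RH cohort WT 1 (2 called), 0.36 with the length and GC offsets (1 called) and 0.22 with the mitochondrial term (none called). Gapdh was among those that passed with the offsets (0.79, edgeR adjusted p = 0.00997) and without RH cohort WT 1 (0.95, edgeR adjusted p = 0.0173). Hk2, the hexokinase that opens the pathway in activated lymphocytes, did not pass the test (0.17, edgeR adjusted p = 0.481).

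MYC targets and ribosome biogenesis factors build ribosomes and feed nucleotide and polyamine synthesis. Of 35 tested, 34 had a positive difference with a median of 0.31, and 9 rose and none fell. Srm, the spermidine synthase and a textbook MYC target, was at 30.2, 29.1 and 28.1 CPM in KO cohort WT against 74.7, 53.1 and 39.3 CPM in RH cohort WT (0.93 ± 0.18, edgeR adjusted p = 0.0168). Rrp9, a component of the U3 particle that processes ribosomal RNA, was at 18.8, 20.1 and 17.6 CPM against 39.4, 34.7 and 25.4 CPM (0.82 ± 0.15, edgeR adjusted p = 0.013). In both genes RH cohort WT 1 was highest and RH cohort WT 3 lowest of its group, and no library overlapped. Nhp2 (0.78), Ppan (0.74), Nop2 (0.49), Noc4l (0.46), Bop1 (0.45), Rrs1 (0.43) and Rcl1 (0.43) were also called. Myc itself did not pass the test, at 53.2, 51.2 and 54.3 CPM against 88.3, 50.1 and 51.8 CPM (0.26 ± 0.16, edgeR adjusted p = 0.338), and was high in RH cohort WT 1 and level in the rest. Without RH cohort WT 1 the list's median was 0.19 with 28 of 35 positive and none called, and with the offsets 0.25 with all 35 positive and 1 called.

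All 52 tested cytosolic ribosomal protein genes had a positive difference, between 0.09 and 0.82 with a median of 0.42. Of these, 37 did not overlap between the groups, while 17.4% of all tested genes were higher without overlap. The test called 6 of the 52 higher, against 3.17% of all tested genes: Rpl27, Rps2, Rps14, Rpl13, Rpl15 and Rpl10. Rpl27, of the large subunit, was at 175, 167 and 199 CPM against 335, 346 and 276 CPM (0.82 ± 0.16, edgeR adjusted p = 0.0172). Rps2, of the small subunit, was at 465, 415 and 499 CPM against 852, 846 and 669 CPM (0.78 ± 0.16, edgeR adjusted p = 0.0191). All genes with ribosomal protein symbols took 4.88%, 4.64% and 4.80% of the counts in KO cohort WT and 6.94%, 6.07% and 5.35% in RH cohort WT, which separates the groups. These genes are short, with a median exon length of 2011 bases, and have many processed pseudogenes that can share their reads. With the length and GC offsets 48 of 52 were positive with a median of 0.26 and 3 called. Without RH cohort WT 1 the figures were 49 of 52, 0.29 and none called. With the mitochondrial term they were 34 of 52, 0.06 and none.

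The respiratory chain is made from genes of both genomes, and most genes of both sets had positive differences. Of 40 tested nuclear genes of oxidative phosphorylation, 39 had a positive difference (median 0.34) and 4 rose: Uqcrc1, Cox8a, Uqcrq and Cox5b. Uqcrc1, a core subunit of complex III, was at 139, 139 and 154 CPM in KO cohort WT and 216, 211 and 181 CPM in RH cohort WT (0.50 ± 0.10, edgeR adjusted p = 0.0192). Cox8a, of complex IV, was at 99.7, 93.7 and 103 CPM against 143, 144 and 134 CPM (0.50 ± 0.11, edgeR adjusted p = 0.0194). Neither overlapped. The list's median was 0.23 without RH cohort WT 1, with 37 of 40 positive and none called. With the offsets it was 0.26 with 39 of 40 positive and 4 called, among which Cox7c (0.51) stood in place of Cox8a (0.26, edgeR adjusted p = 0.118). With the mitochondrial term it was 0.06 with 22 of 40 positive and none called.

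Over the whole mitochondrial genome 33 genes were tested, tRNA genes such as mt-Te among them, and 6 were called (18.2%). The list of mitochondrially encoded genes had 13 tested members. All 13 had positive differences with a median of 0.78, the highest of the programme lists, and 3 of the 13 were called. The one with the most counts, mt-Co1, which encodes a complex IV core subunit, was at 15260, 16650 and 17250 CPM in KO cohort WT and 30500, 29840 and 19660 CPM in RH cohort WT (0.70 ± 0.17, edgeR adjusted p = 0.0289). RH cohort WT 1 and 2 stood far above the rest and RH cohort WT 3 just above KO cohort WT. The second, mt-Nd1, of complex I, went the same way (0.78 ± 0.20, edgeR adjusted p = 0.037). The last, mt-Nd4l, shares its end with mt-Nd4, and was at 0.66, 0.72 and 0.63 CPM against 112, 2.13 and 1.94 CPM (5.83 ± 1.16, edgeR adjusted p = 0.0177), so its size, and its mean level above the minimum for named genes, rest on RH cohort WT 1. Without that library the difference was 1.60 (edgeR adjusted p = 0.0998). Some mitochondrial genes had few reads beside their neighbours (mt-Co2, 0.41 to 4.17 CPM), and copies of them lie in the nuclear genome, so these counts are uncertain. The list's median was 0.64 without RH cohort WT 1, with all 13 positive and none called. With the offsets 5 of the 13 were called and the median was 0.88. With the mitochondrial term, which is built from these genes' own counts, the median was 0.01 with 7 positive and none called.

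Amino acid supply and protein turnover were also covered. All 23 tested genes of the ATF4 response and amino acid synthesis were positive with a median of 0.28, and Phgdh, Shmt2 and Slc7a5 rose. Shmt2, the mitochondrial serine hydroxymethyltransferase, was at 206, 186 and 216 CPM against 333, 324 and 249 CPM (0.57 ± 0.12, edgeR adjusted p = 0.0191). Of 31 proteasome genes, 30 were positive with a median of 0.25, and Psmb3, Psmd3 and Psmb5 rose. The amino acid median was 0.21 and the proteasome median 0.18 without RH cohort WT 1, with no member of either list called. With the offsets none of the amino acid list and 2 of the proteasome list were called. Heat shock proteins had a median of 0.37 over 20 genes, with the cochaperones Fkbp4 (0.74) and Ahsa1 (0.44) called. Fkbp4 was at 135, 149 and 150 CPM against 317, 228 and 183 CPM (edgeR adjusted p = 0.0245), without overlap. The heat shock median was 0.18 without RH cohort WT 1, with none called, and -0.07 with that library placed in the knock-out cohort. The glycolysis, MYC, ribosomal, respiratory, amino acid and proteasome medians were positive in every alternative run.

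**Figure D3:**
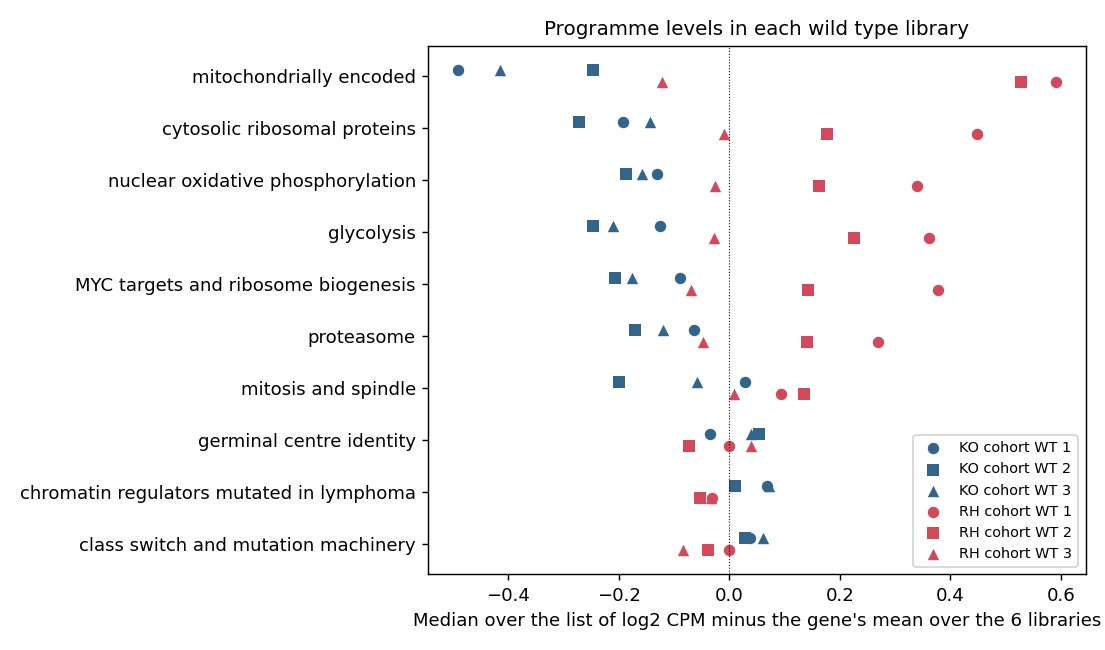
Level of 10 programmes in each wild type library, as the median over the list's genes of log2 CPM minus the gene's mean over the 6 libraries (horizontal axis); KO cohort WT is blue and RH cohort WT red, with 1 symbol per library. In the 6 upper lists RH cohort WT 1 lay highest, from 0.27 to 0.59, and RH cohort WT 3, at -0.12 to -0.01, lay just above the KO cohort libraries.

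Cell cycle genes were described by phase. Of 30 genes of mitosis and the spindle, 20 were positive with a median of 0.14, and 7 rose and none fell: Cdc20, Ube2c, Plk1, Ccnb1, Aurka, Cenpa and Cdk1. These are the late genes of division, with Cdc20 and Ube2c acting in the complex that ends mitosis. Cdc20 was at 168, 145 and 174 CPM in KO cohort WT and 291, 306 and 250 CPM in RH cohort WT (0.80 ± 0.11, edgeR adjusted p = 0.00406). Plk1, the mitotic kinase, was at 162, 130 and 166 CPM against 236, 245 and 204 CPM (0.58 ± 0.11, edgeR adjusted p = 0.0131). For both, KO cohort WT 2 was lowest and all RH cohort libraries stood above all KO cohort libraries. Cdc20 was the only one of the 7 still called without RH cohort WT 1 (0.78, edgeR adjusted p = 0.013). With the offsets Cdc20 (0.51, edgeR adjusted p = 0.019) and Ccnb1 (0.60, edgeR adjusted p = 0.00918) were called. In that fit 28 of the 30 genes were positive with a median of 0.16 and 3 called. Mki67, a proliferation marker with an exon length of 10061 bases, had the opposite sign, at 4495, 3875 and 3978 CPM against 3290, 3096 and 3074 CPM (-0.38 ± 0.13, edgeR adjusted p = 0.0747), and did not pass the test.

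Of 36 DNA replication genes tested, 31 were positive with a median of 0.11. Only Cdt1 and Pold1 were called higher, against 3.17% of all tested genes. Cdt1, which licenses origins, was at 70.2, 72.1 and 71.8 CPM against 100, 105 and 95.7 CPM (0.49 ± 0.10, edgeR adjusted p = 0.0172), a tight separation in all libraries. Neither was called without RH cohort WT 1, where the list's median was 0.06, nor with the offsets. This median turned to -0.07 with the mitochondrial term. Replication dependent histones, whose transcripts lack a poly(A) tail, varied between libraries: 25 of 33 were positive, none was called, and the median of 0.25 became -0.61 without RH cohort WT 1.

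**Figure D4:**
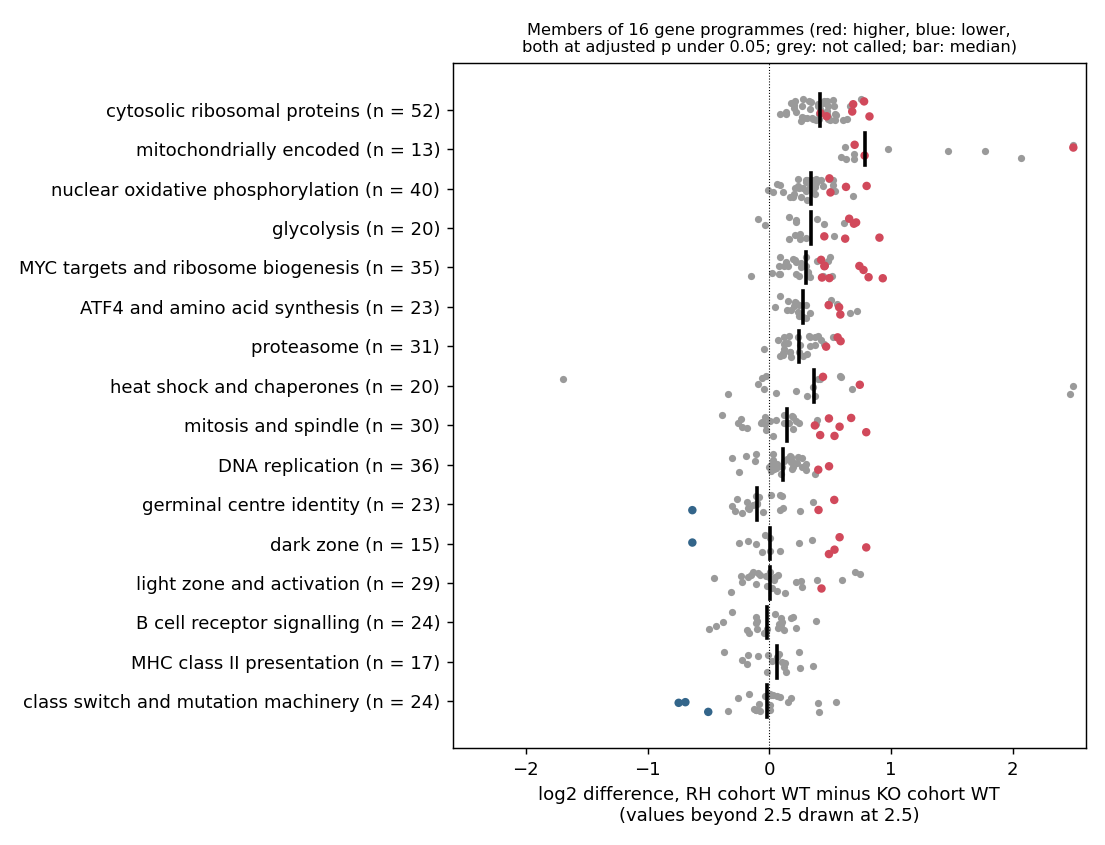
Log2 difference between RH cohort WT and KO cohort WT (horizontal axis) of each tested member of 16 gene programmes, with called genes in red (higher) or blue (lower), the others in grey, and the median as a bar; values beyond 2.5 are drawn at 2.5. All 52 ribosomal protein genes and all 13 mitochondrially encoded genes lay right of 0, while the germinal centre identity, dark zone, light zone, B cell receptor and class switch lists spread around it.

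The lists of germinal centre identity and of its zones had medians near that of all genes. The memory B cell list differed, with 9 of 15 genes positive, a median of 0.38 and 1 called higher, Bcl2. Its median was 0.22 to 0.51 over the alternatives. Its summed level was lower in RH cohort WT, at 985.5, 998.7 and 1079 CPM in KO cohort WT against 577.4, 779.9 and 1037 CPM. Of 23 genes of germinal centre identity, 9 were positive and the median was -0.10. Mef2b, a transcription factor mutated in germinal centre lymphoma, was called higher at 230, 259 and 256 CPM against 400, 348 and 330 CPM (0.53 ± 0.11, edgeR adjusted p = 0.0192). Tcf3, which encodes the E proteins of B cell commitment, was also called higher (0.41). Mybl1, a MYB family factor of centroblasts, was called lower at 826, 832 and 747 CPM against 422, 518 and 613 CPM (-0.63 ± 0.15, edgeR adjusted p = 0.0292). None of these groups of libraries overlapped, and the GC content was 64.2% for Mef2b and 37.0% for Mybl1. None of the 3 stayed called without RH cohort WT 1.

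The dark zone list of 15 genes had a median of 0.00, with 4 mitotic genes already named called higher and Mybl1 lower. The light zone list of 29 genes had a median of 0.01, and Traf1, an adaptor of CD40 signals, was its only called gene (0.43 ± 0.11, edgeR adjusted p = 0.0338; 90.0, 95.2 and 92.5 CPM against 136, 127 and 111 CPM). Both medians changed sign in 7 or more of the alternatives, and without RH cohort WT 1 only Cdc20 of the dark zone list and none of the light zone list were called. B cell receptor signalling (24 genes, median -0.02), MHC class II presentation (17 genes, median 0.06), the interferon gamma response (22 genes, median 0.04), the circadian clock (17 genes, median 0.04), the glucocorticoid response (18 genes, median -0.05) and the hypoxia targets (20 genes, median 0.08) had no called member. The largest by p in the class II list, H2-Ab1, was at 1562, 1796 and 1816 CPM against 2383, 2111 and 2150 CPM and did not pass the test (0.36 ± 0.12, edgeR adjusted p = 0.072). In the MHC class I list of 22 genes, Psmb9 of the immunoproteasome was higher (0.49) and the nonclassical H2-T24 lower (-0.63), with a median of 0.18 that became 0.00 with the offsets. The type I interferon list of 31 genes had a median of 0.31 and 1 called gene, Parp14, which was lower (-0.46). None of these 3 was called without RH cohort WT 1.

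Among signalling genes, the immediate early list, which also responds to tissue handling, had 20 of 27 genes positive, a median of 0.31, and 3 called higher. Junb, an AP-1 factor, was at 45.0, 48.9 and 50.9 CPM in KO cohort WT and 88.9, 72.0 and 77.9 CPM in RH cohort WT (0.72 ± 0.13, edgeR adjusted p = 0.013). Socs3, the inhibitor of cytokine signalling, was at 2.90, 1.98 and 2.17 CPM against 6.03, 6.19 and 4.03 CPM (1.21 ± 0.25, edgeR adjusted p = 0.0191). Fos was low throughout, at 1.33, 1.07 and 1.49 CPM against 4.30, 10.7 and 3.47 CPM (2.26 ± 0.63, edgeR adjusted p = 0.0468). None of the 3 overlapped, but none was called without RH cohort WT 1, and the median with the offsets was 0.06. Rel, the NF-kB subunit of germinal centre cells, was lower at 322, 327 and 310 CPM against 174, 196 and 252 CPM (-0.63 ± 0.17, edgeR adjusted p = 0.0401). Ccr7, the receptor that draws B cells towards T cell zones, was at 1.04, 1.29 and 2.10 CPM against 2.83, 3.70 and 5.71 CPM (1.47 ± 0.34, edgeR adjusted p = 0.0264). Bcl2, which germinal centre cells normally silence, was at 3.27, 2.88 and 2.92 CPM against 4.93, 5.24 and 7.18 CPM (0.94 ± 0.26, edgeR adjusted p = 0.0431). For Ccr7, Bcl2 and the marginal zone gene Plac8, RH cohort WT 3 was the highest library, unlike for the growth genes. Without RH cohort WT 1, Ccr7 was called (1.68, edgeR adjusted p = 0.0463), while Rel (-0.51), Bcl2 (1.05) and Plac8 were not. With the length and GC offsets Bcl2 was called (1.16, edgeR adjusted p = 0.0273), while Ccr7, Rel and Plac8 were not.

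The called genes of class switching and mutation were lower in RH cohort WT. Of 24 genes of class switching and mutation, 12 were positive and the median was -0.02, and the 3 called were Rif1, Prkdc and Rev3l. Rif1, which protects broken ends during class switching, was at 275, 248 and 254 CPM in KO cohort WT and 164, 151 and 167 CPM in RH cohort WT (-0.69 ± 0.13, edgeR adjusted p = 0.014). Prkdc, the kinase of end joining, was at 130, 143 and 124 CPM against 91.1, 87.6 and 102 CPM (-0.50 ± 0.13, edgeR adjusted p = 0.0399). Rev3l, the catalytic part of polymerase zeta, was at 340, 318 and 314 CPM against 191, 170 and 220 CPM (-0.74 ± 0.20, edgeR adjusted p = 0.0435). All 3 separated the groups in every library, and all 3 are long, with exon lengths of 10504 to 13293 bases, and have a GC content of 39.3% to 43.3%. With the length and GC offsets Rif1 was at -0.31 (edgeR adjusted p = 0.0582) and no gene of this list was called. None was called without RH cohort WT 1 either, where Rif1 was at -0.70 (edgeR adjusted p = 0.0571). Of 26 chromatin regulators mutated in lymphoma, 8 were positive with a median of -0.07. Setd2, the histone H3 lysine methyltransferase of gene bodies, was lower at 523, 498 and 565 CPM against 338, 328 and 395 CPM (-0.58 ± 0.13, edgeR adjusted p = 0.0245), and Mef2b and Smarcb1 (0.42) were higher, while none of this list was called without RH cohort WT 1.

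The immunoglobulin constant list holds heavy chain genes, which report isotype, and light chain genes such as Iglc3, which do not. Of 12 tested, 10 were positive with a median of 0.43, and Ighg2c and Iglc3 rose. Ighg2c, the IgG2c isotype that T-bet and interferon gamma promote, was at 20.0, 39.4 and 24.8 CPM in KO cohort WT and 111, 173 and 47.2 CPM in RH cohort WT (1.97 ± 0.55, edgeR adjusted p = 0.0461). RH cohort WT 2 was highest, as for Tbx21, and RH cohort WT 3 lay just above KO cohort WT 2. Ighg1, the main isotype of this response, was at 2014, 2033 and 2395 CPM against 1677, 1630 and 1970 CPM and did not pass the test (-0.29 ± 0.13, edgeR adjusted p = 0.183). Ighm did not pass it either (-0.05 ± 0.16, edgeR adjusted p = 0.884). Neither Ighg2c nor Iglc3 was called without RH cohort WT 1. Ighg2c also lost its call with a term for sex, which is unevenly split between the groups, and with the length and GC offsets. Iglc3 was called with the offsets (0.48, edgeR adjusted p = 0.0197).

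The summed levels of markers of other cells ranged widely between lists. The 15 tested macrophage and monocyte markers, of 19 listed, were all positive with a median of 0.95 and none called, and their summed level was 20.1, 20.5 and 26.7 CPM in KO cohort WT and 26.0, 32.1 and 30.8 CPM in RH cohort WT. T cell markers summed to 114, 112 and 101 CPM against 153, 108 and 135 CPM, with 8 of 17 tested, 7 positive, none called and Cd4 at no more than 0.42 CPM. The NK list had 3 tested of 11, with 5 of the 11 at 0 in all 6 libraries, and summed to 10.2, 8.52 and 10.1 CPM against 21.2, 32.6 and 14.5 CPM, almost all of it Tbx21. Follicular and marginal zone B cell markers summed to 2295 to 2591 and 839 to 931 CPM in KO cohort WT and to 2149 to 2666 and 801 to 946 CPM in RH cohort WT. Plasma cell markers summed to 958 to 1009 CPM against 844 to 977 CPM, with none of the 8 tested called. Follicular dendritic cell and stroma markers summed to 601.5 to 642 CPM against 467 to 608 CPM, with none of the 7 tested called. Most of this sum was Cr2, also in the B cell receptor list, at 375 to 402 CPM against 243 to 363 CPM. Dendritic, erythroid, megakaryocyte and neutrophil markers each summed to no more than 148 CPM in any of the 6 libraries, with none called. Flt3 made up most of the dendritic sum and Tfrc most of the erythroid sum. The part of other cell types in the results above was not tested.

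The mutant libraries give the same cohort comparison in samples that share none with the wild type groups, but there the Crebbp alleles differ as well (KO against RH HET and RH HOMO), so cohort and allele cannot be told apart. The mean of RH HET and RH HOMO against KO gave 1029 genes higher (6.2%) and 769 lower (4.63%), 1798 in all (10.8%), by edgeR at an adjusted p under 0.05. Of the 527 genes higher in RH cohort WT, 157 were also called higher there (29.8% of the first list and 15.3% of the second), and of the 313 lower genes 120 were also called lower (38.3% and 15.6%). The sign was the same for 487 of the 527 and 300 of the 313, and 4 genes were called in opposite directions.

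By programme, the medians in the mutant libraries were 0.59 for ribosomal proteins (47 of 52 called higher), 0.39 for nuclear oxidative phosphorylation, 0.29 for the mitochondrial genes, 0.21 for glycolysis, 0.21 for the MYC list and 0.30 for the proteasome, against -0.00 over all genes. For the antigen presentation lists, MHC class I had a median of 0.63 with 17 of 22 called higher in the mutant libraries, where KO is one side, and 0.18 with 1 called higher between the wild type groups. MHC class II had 0.45 with 9 of 17 called, against 0.06 with none called. Over the groups by GC content the medians ran from -0.07 to 0.11 in the mutant libraries, against -0.18 to 0.30 in the wild type libraries. The difference between the comparisons was tested per gene, and 18 genes had a higher and 16 a lower cohort difference in the wild type libraries.

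**Figure D5:**
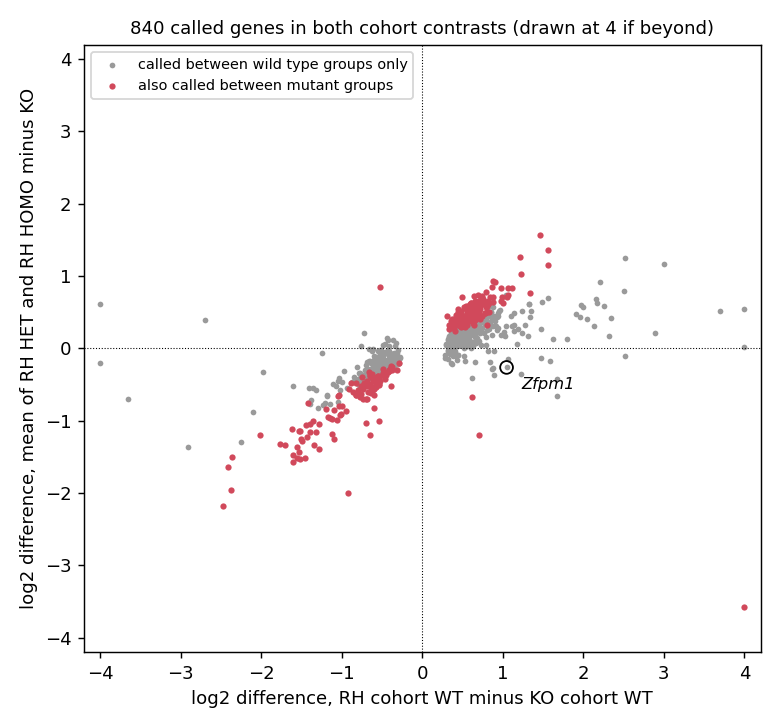
Log2 difference of the 840 genes called between the wild type groups (horizontal axis) against the difference between the mutant groups of the same cohorts (vertical axis); red points were called in both and values beyond 4 are drawn at 4. Of the 527 higher genes, 487 lay above 0 on the vertical axis, and of the 313 lower genes 300 lay below it, with Zfpm1 circled as an exception (1.05 and -0.26).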

How the data were processed

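The authors deposited 1 table of raw read counts, with 48593 gene symbols in rows and 16 libraries in columns. Per the submitters' processing notes, the tools were CASAVA 1.8, HISAT2 and featureCounts, on build mm10. Tool versions beyond CASAVA and the strand setting are not given in the sources used. The TruSeq v2 kit does not mark strand, so overlapping and antisense genes cannot be told apart. Counts were tested with edgeR 4.0.16 in R 4.3.3 (filterByExpr, TMM scaling, quasi-likelihood test, 5 group means over all 16 libraries, 11 residual degrees of freedom, Benjamini-Hochberg adjustment over 16606 genes). Log2 CPM used a prior count of 2. Alternatives were DESeq2 1.42.0, limma 3.58.1 (voom with quality weights), other scaling, no filter, the wild type libraries alone, terms for sex and mitochondrial share, each library left out and, chosen after seeing the data, offsets for exon length and GC content. Lengths and GC content came from GENCODE M21, which held 48069 of the symbols. On data simulated for this comparison (16279 genes, 200 changed), 97% of changes of 1 on the log2 scale and 100% of changes of 2 were called, and 5.74% of calls were false. The simulation held no outlying library, no shift across a whole library and no trend with length or GC content. These shares therefore need not hold for the real calls. Replicates differed by more than sampling noise (chi-square per degree of freedom of 36.8 to 114), at 41407419 to 93040297 counts.

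Named genes were the 10 largest rises and 10 largest falls that were called, did not overlap and averaged 2 or more in log2 CPM. Immunoglobulin segments, predicted models and pseudogenes were left out. Of each list, the 2 called members with the smallest p (or else the 1 with the smallest p) were picked, as were Crebbp, Ep300 and the sex genes. Not every list and not every gene picked by this rule is described above. Other members, such as Pou2af1, Myc, Hk2, Mki67, Bcl6, Fas, Ighg1, Ighm and mt-Co2, were chosen after their values were seen. Lists share some genes, and a gene counted in them is not reported here. The libraries compared and the lists were chosen with earlier results of these data known.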

Additional observations from a re-analysis of the deposited data

Results flagged for a closer look

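Zfpm1 was called between the wild type groups (1.05) and not between the mutant groups (-0.26, edgeR adjusted p = 0.183), and the difference between the comparisons passed its own test (1.31 ± 0.20 on the log2 scale, edgeR adjusted p = 0.00914). It was at 29.7, 27.6 and 31.9 CPM in KO cohort WT, 49.0, 43.4 and 54.5 CPM in KO, 72.1, 63.9 and 48.4 CPM in RH cohort WT, 53.6, 40, 40.7 and 38.9 CPM in RH HET and 43.0, 33.2 and 39.4 CPM in RH HOMO. KO cohort WT was the lowest group and did not overlap with any other.

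The 4 genes called in opposite directions were singled out after their values were seen. They passed that test too, but calls of opposite sign in the same libraries made this nearly certain. Their p-values for the difference therefore add no support beyond the 2 calls. Dmwd and Dmpk are neighbours on the plus strand of chromosome 7 (19076227 to 19082776 and 19083849 to 19093821, mm10). Dmwd was at 25.6, 27.2 and 25.9 CPM in KO cohort WT, 54.4, 56.1 and 52.5 CPM in KO, 39.9, 43.9 and 36.9 CPM in RH cohort WT and 30.7 to 39.8 CPM in the RH mutants (difference between the comparisons 1.29 ± 0.13, edgeR adjusted p = 0.000224). The groups KO cohort WT, RH cohort WT and KO did not overlap, in that rising order. Dmpk, which encodes a muscle protein kinase, was at 4.97, 5.43 and 3.98 CPM, 13.0, 14.7 and 12.0 CPM, and 8.07, 7.99 and 7.36 CPM in the same groups (1.90 ± 0.25, edgeR adjusted p = 0.00204), with the same order. Hemgn went the other way, at 23.5, 22 and 19.5 CPM in KO cohort WT, 10.6, 8.46 and 9.44 CPM in KO and 15.8, 16.2 and 13.1 CPM in RH cohort WT (-1.38 ± 0.18, edgeR adjusted p = 0.00155). Gm9522, a sparse gene model, was at 0 CPM in all 3 KO cohort WT libraries and in RH cohort WT 2, and at 1.89 and 0.04 CPM in RH cohort WT 1 and 3. Its fitted difference of 11.64 (edgeR adjusted p = 0.046) depends on the prior count and is no measure of size.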

How the results depend on the processing

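Over up to 17 alternatives, called genes named in the text lost their call mostly when a library was left out or the mitochondrial term was added, and 1 called value reversed: mt-Nd4l, at -3.77 with RH cohort WT 1 placed in the knock-out cohort. Higher and lower calls between the wild type groups, 527 and 313, were 1194 and 910 with DESeq2, 2232 and 2125 with limma-voom and quality weights, 929 and 925 with the 6 wild type libraries alone, 64 and 71 at an absolute log2 difference of at least 1, 1 and 0 with RH cohort WT 1 placed in the knock-out cohort, 0 and 0 with the mitochondrial term (lowest adjusted p 0.0843), 136 and 74 with length and GC offsets, and 21 and 3 with offsets and without RH cohort WT 1. Lower calls were 659 with no count filter (25590 genes tested). Leaving out a library gave 1 to 1119 higher and 2 to 749 lower calls. In the mutant comparison (1029 and 769), DESeq2 gave 1558 and 1229, limma-voom 1833 and 1839, and leaving out a library 146 to 1819 and 135 to 1480. The causes of these moves were not tested. Fits that leave a library out also hold fewer libraries, and the part of that in the moves was not tested either. No paired analysis was possible because the replicate numbers follow accession order and pair no libraries. The medians of the dark zone, light zone, B cell receptor, NF-kB, MHC class I and II, interferon gamma, clock, glucocorticoid, hypoxia, heat shock, DNA replication, histone, germinal centre identity and positioning lists changed sign in at least 1 alternative. All wild type libraries held at least 41407419 counts. Each wild type mean rests on 3 libraries, while the main test took its spread from all 16 libraries.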

Other observations

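A few immunoglobulin variable segments, left out of the named genes, were called between the wild type groups. Of 198 tested, 1 was called higher in RH cohort WT (0.505%, against 3.17% of all tested genes) and 5 lower (2.53%, against 1.88%). The called segments were chosen here after their values were seen. Igkv8-21 was at 6.82 ± 0.26 CPM in KO cohort WT and 20.1 ± 10.1 CPM in RH cohort WT (SD, n = 3 each; log2 difference 1.55 ± 0.39, edgeR adjusted p = 0.0346). Ighv3-8 was at 8.45 ± 2.70 CPM against 1.98 ± 0.57 CPM (-2.11 ± 0.37, edgeR adjusted p = 0.00996). Igkv1-99, Ighv1-80, Ighv5-4 and Ighv1-82 were lower by log2 differences of -2.01, -1.46, -1.19 and -1.18. Reads of mutated and near-identical segments are uncertain.

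Some called genes outside the lists passed the test also with the length and GC offsets, and separately without RH cohort WT 1. Ube2s, the ubiquitin enzyme that extends chains in mitotic exit together with Ube2c, was higher by 0.91 (edgeR adjusted p = 0.00406), by 1.01 with the offsets and by 0.93 without that library. The tubulin genes Tuba1b and Tuba1c were higher by 0.71 and 0.78, by 0.44 and 0.49 with the offsets and by 0.66 and 0.83 without it. Selplg, which encodes the selectin ligand PSGL-1, was higher by 0.77, 0.73 and 0.83. Lims1, an integrin adaptor gene, was lower at -0.66, -0.51 and -0.59.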
